A study of Mus musculus with 27 samples.

Results

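The last step of recovery from repeated liver injury, from 72 h to 14 d after the final dose, was followed in hepatic stellate cells (HSCs) as the difference between 2 groups of 4 RNA-seq libraries. These 8 libraries, of 27 in the series, were chosen by their labels alone, and all genes entered the comparison. Both groups came from male Balb/c mice that were 8 to 10 weeks old at the start and had received carbon tetrachloride (CCl4), a hepatocyte toxin, in mineral oil, injected intraperitoneally (0.5 µL per g). The 8 injections were spread over 4 weeks, and cells were taken 72 h (chronic 72 h) or 14 d (chronic 14 d) after the last of them. HSCs were sorted by the ultraviolet fluorescence of their stored retinoid. Every library was described as an individual experiment, with no further account of how many animals it held, so p-values measure the spread between libraries. That spread was estimated within the 7 groups of all 27 libraries, not from these 8 alone. Other libraries of the series serve as references: healthy mice that received no injection (n = 4), mice 24 h after the same chronic course (n = 4), and mice 72 h or 7 d after a single injection of the same dose (acute, n = 4 each), the healthy and acute mice being 10 to 12 weeks old.

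HSCs are the pericytes of the liver sinusoid. In the quiescent state they store vitamin A as retinyl esters in lipid droplets and secrete a set of signalling and complement-type proteins, and after injury they turn into myofibroblast-like cells that deposit fibrillar collagen. When an injury that has caused fibrosis stops, part of these cells die and part return towards a quiescent state, and the scar is slowly broken down. The comparison of 14 d with 72 h asks which transcripts still move late in that process.

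The 8 libraries held 6.31 M to 13.03 M counts. They fell into depth classes that run through 1 of the groups: chronic 72 h replicates 1 and 2 and all chronic 14 d libraries belonged to the lower class (6.31 M to 7.58 M), and chronic 72 h replicates 3 and 4 to the higher class (10.8 M to 13.1 M). All healthy libraries belonged to the higher class as well. Levels at 14 d are set beside healthy levels below, and there injury cannot be told apart from depth class. Chronic 14 d replicate 4 had a count in 19929 genes and the other 7 libraries in 21343 to 22477. Within the groups, pairs of libraries correlated at r = 0.913 to 0.947 across genes. Their scatter exceeded that of counting by 17.0 to 75.1 times, so that none was a mere repeat sequencing of another. Whether libraries shared an animal cannot be told from this scatter. The 10 markers of HSCs, among them Lrat (lecithin retinol acyltransferase), Dcn (decorin) and Reln (reelin), were present in all 8 libraries. Their summed level was 20241 to 21715 CPM (counts scaled to the TMM-adjusted library total) at 72 h and 18590 to 24506 CPM at 14 d. Much of these sums was the matrix gene Dcn, at 12413 to 14647 CPM at 72 h and 10570 to 16569 CPM at 14 d. None of the 10 was called changed.

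Few genes were called between 72 h and 14 d, and more of them lower than higher. These are values of bulk RNA, in which fewer cells of a type and less RNA per cell cannot be told apart. Of 18758 genes tested, 49 were higher at 14 d than at 72 h (0.261%) and 120 were lower (0.64%), counting a gene when its adjusted p was below 0.05 (edgeR quasi-likelihood test, Benjamini-Hochberg) and its change above 2-fold. The median size of the called changes was 2.53-fold for the higher and 2.67-fold for the lower genes, and 45 and 114 of them were protein coding. Libraries of the groups did not overlap for 41 of the 49 and for 116 of the 120 genes, where over all genes tested 3.42% lay without overlap in the higher and 5.7% in the lower direction. Without the fold minimum and without adjustment, 1014 genes were higher and 1624 lower at p below 0.05.

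**Figure D1:**
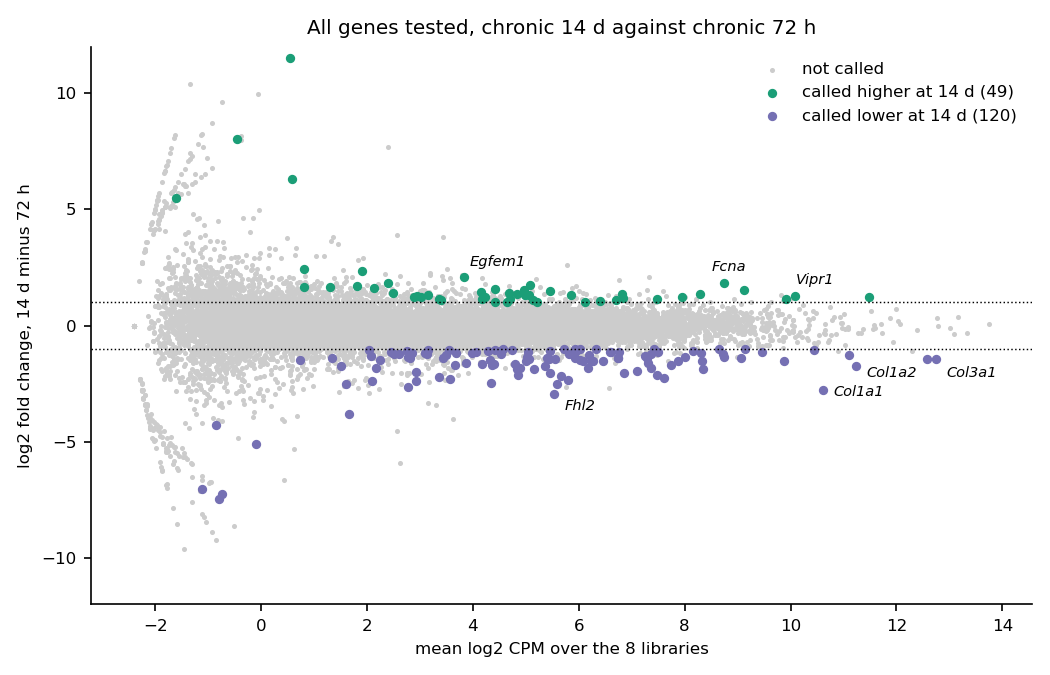
Log2 fold change of chronic 14 d against chronic 72 h (vertical axis) against the mean log2 CPM over the 8 libraries (horizontal axis) for the 18758 genes tested, with the 49 genes called higher in green and the 120 called lower in purple. Dotted lines mark 2-fold changes. The fibrillar collagens Col1a1, Col1a2 and Col3a1 lie at high levels and low fold changes, and the called genes with the most extreme fold changes lie at low mean levels.

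The number of called genes (169 in either direction, 0.901% of those tested) rested on single libraries. The counts were 11 higher and 47 lower without chronic 72 h replicate 4, and 11 and 45 without chronic 14 d replicate 4. Between 33 and 58 higher and 85 and 120 lower genes were called without any of the other 6. Called in all 8 of these fits were 8 of the higher genes (Pcsk6, Calcrl, Fcna, Egfem1, Elfn1, Epor, Cadm1 and Pde8b) and 37 of the lower. The 37 were Col1a1, Col1a2, Col3a1, Col5a2, Lum, Eln, Mfap2, Mmp2, Mmp19, Loxl1, Ctsk, Adamts12, Has1, Cpxm1, Ssc5d, Ccdc80, Cercam, C1qtnf6, Scube1, Nbl1, Dkk3, Fgf23, Plat, Ppic, Dpep1, Dhrs3, Ch25h, Hk2, Fhl2, Sox4, Foxc2, Nfil3, Cacnb3, Ankrd55, Ccdc3, Clba1 and Gm7932. These genes are named here because of this count, after their values were seen. With depth class as a term in the fit all 8 and 36 of the 37 were called as well.

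The list of fibrillar collagens, which form the cable-like fibres of scar tissue, also held the fibril-associated collagens Col12a1, Col14a1 and Col16a1. For its size it had the most called genes. Of 10 tested, 6 were lower at 14 d and none was higher, with a median log2 fold change of -1.36 against -0.01 over all genes. With depth class as a term 3 were called, Col1a1, Col1a2 and Col3a1, and the median was -0.95. Col1a1 (ENSMUSG00000001506, GRCm38 chromosome 11, 94936224 to 94953042), which encodes the alpha 1 chain of type I collagen, stood at 4676, 2928, 5299 and 4008 CPM in the 72 h libraries and at 725, 491, 891 and 387 CPM in the 14 d libraries. The groups were far apart, and every 14 d library was still above the healthy mean of 230 ± 74.9 CPM (SD, n = 4). Col1a1 changed by -2.76 on the log2 scale (SE 0.36, adjusted p 0.000213, edgeR). Col1a2 (ENSMUSG00000029661, chromosome 6, 4504814 to 4541544), the alpha 2 chain of the same trimer, had 4218, 3158, 5337 and 5169 CPM at 72 h and 1353, 1158, 1545 and 1240 CPM at 14 d, beside 1048 ± 139 CPM (SD, n = 4) in healthy libraries. Its 14 d libraries thus lay a little above the healthy mean and the change was -1.76 (SE 0.26, adjusted p 0.000839, edgeR). Col3a1 (ENSMUSG00000026043, chromosome 1, 45311538 to 45349706), the type III chain that is laid down with type I, went from 11379 ± 2542 to 4242 ± 624 CPM (SD, n = 4 each; -1.42, SE 0.25, adjusted p 0.00399, edgeR), with 2655 ± 72.0 CPM in healthy libraries.

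The remaining members of this list did not move alike. Col5a2 fell (-1.31), while its partner chain Col5a1 (-0.59) and Col5a3 (0.57) were not called. Col12a1, a collagen on the surface of fibrils, went from 34.2 ± 11.9 to 12.2 ± 3.38 CPM (SD, n = 4 each; -1.49, adjusted p 0.0458, edgeR), but it was called without chronic 72 h replicate 2 and in none of the other 7 fits (-1.69 to -1.26). Col11a1 was nearly absent, at 0.533, 0.429, 2.88 and 1.96 CPM at 72 h and at 0, 0, 0.241 and 0 CPM at 14 d. Against 3 counts per library, its level was at least 3.62-fold lower at 14 d, a difference that was called in 3 of the 8 fits without 1 library and lost without 72 h replicates 3 (-3.74) and 4 (-4.14) and 14 d replicates 1 (-3.95), 2 (-3.92) and 4 (-3.95). Col14a1 (0.16) and Col16a1 (-0.33) did not pass the test.

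Since Col1a2 and Col3a1 fell together, the 120 bases before their transcription starts are shown for the genes' sequence context, from RefSeq on GRCm38.p6, 5′ to 3′ on the gene's own strand. Capitals mark the letters of a CCAAT box (CCAAT) or a TATA box (TATAAA), each searched on both strands. They are matches of letters at any distance from the start, and whether they act as promoter elements was not tested.
Col1a2, chr6:4505498-4505617, plus strand: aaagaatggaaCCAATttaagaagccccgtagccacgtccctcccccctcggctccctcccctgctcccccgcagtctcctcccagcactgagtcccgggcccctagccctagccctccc
Col3a1, chr1:45311418-45311537, plus strand: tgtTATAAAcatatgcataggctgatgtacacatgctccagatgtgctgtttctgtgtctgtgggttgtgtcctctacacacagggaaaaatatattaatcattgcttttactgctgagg
The Col1a2 window has CCAAT 109 bases before this start and lies inside the span that GENCODE gives the gene. The Col3a1 window has TATAAA 117 bases before the start, which GENCODE places at the same base. In the 250 bases before the start, CCAAT occurred in 35.9% and TATAAA in 7.11% of the 11687 tested genes with a RefSeq window. Among the genes with a window, CCAAT was held by 27 of 84 that fell (32.1%) and by 14 of 38 that rose (36.8%), and TATAAA by 9 (10.7%) and 4 (10.5%). No test of these shares was run.

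**Figure D2:**
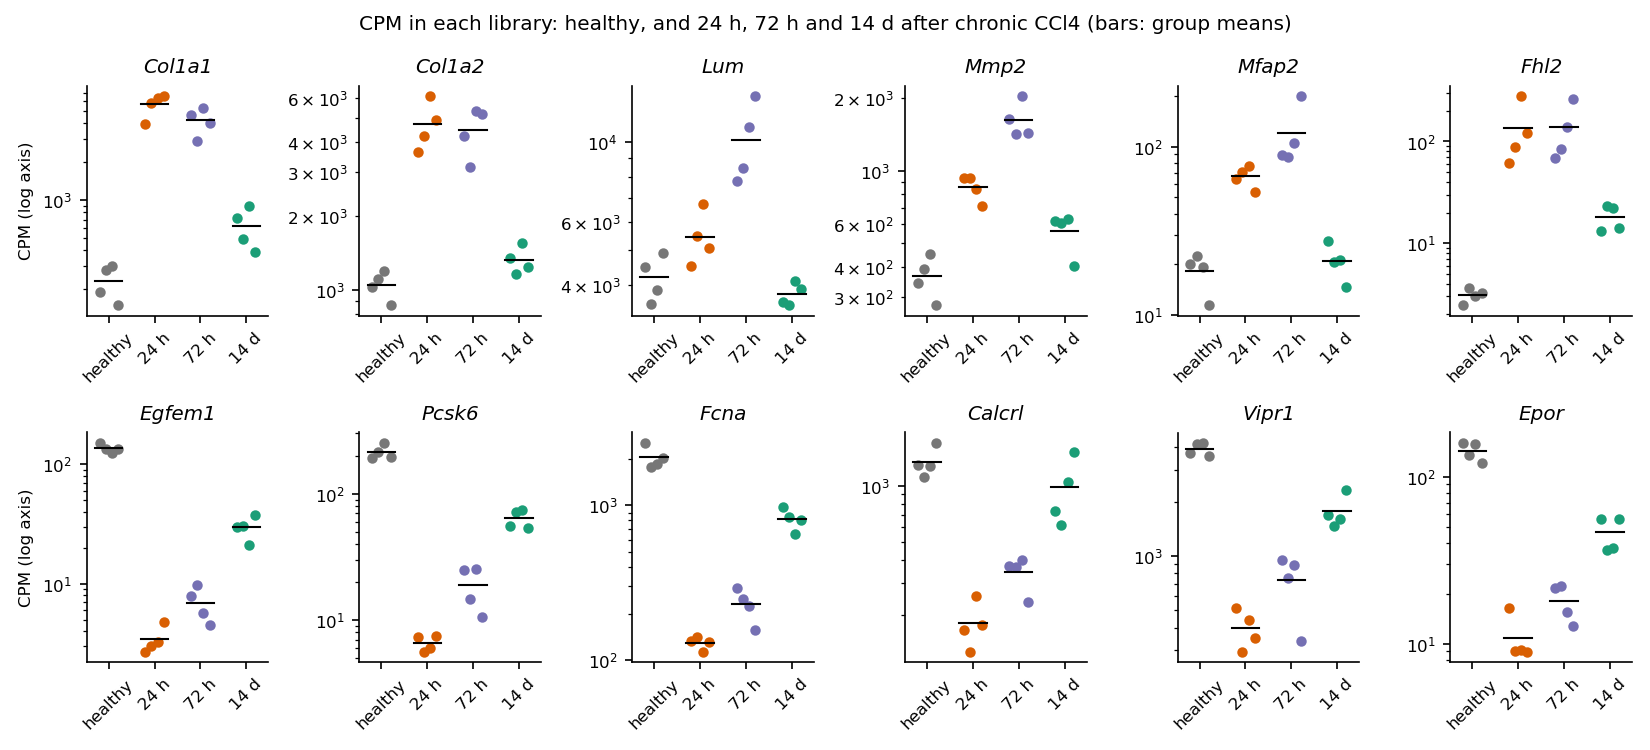
CPM on a log axis in each library for 6 genes that fell (upper panels) and 6 that rose (lower panels) between 72 h and 14 d, in healthy libraries and 24 h, 72 h and 14 d after the chronic course (4 libraries each, black bars at the group means). In all 12 panels the 14 d points lie apart from the 72 h points. The genes were picked from those called in this step, so the separation follows largely from that choice. The 14 d means of Lum and Mfap2 lie near the healthy means, while those of Fhl2, Egfem1 and Pcsk6 do not reach them.

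Enzymes that process and cross-link collagen were mostly not called. Of 19 tested, 3 fell, none rose, and the median log2 fold change was -0.41. Loxl1, a lysyl oxidase that acts on elastin, had 379, 314, 430 and 552 CPM at 72 h and 192, 176, 198 and 96.1 CPM at 14 d (-1.34, SE 0.24, adjusted p 0.00434, edgeR). All of its 14 d libraries were below all of its 72 h libraries, and their mean of 165 CPM was close to the 147 CPM of healthy libraries. Lox, the cross-linker of fibrillar collagen, went from 78.7 ± 33.6 to 23.7 ± 7.59 CPM (SD, n = 4 each; -1.73, adjusted p 0.0434, edgeR). Its 2 highest values, 112 and 103 CPM, were those of the 72 h libraries of higher depth, and the call was lost without 72 h replicates 3 (-1.50) or 4 (-1.58), without 14 d replicates 1 (-1.62), 2 (-1.63) or 4 (-1.68), and with depth class as a term (-0.99). Adamts2, the protease that removes the amino-terminal propeptide of collagen, fell from 810 ± 132 to 404 ± 96.7 CPM (-1.01, adjusted p 0.00184, edgeR) and missed the 2-fold minimum without 72 h replicates 1 (-0.91) or 3 (-0.97) or 14 d replicate 4 (-0.84). Loxl2 (-0.94), the collagen chaperone Serpinh1 (-0.76) and the prolyl hydroxylases P4ha1 (0.09) and P4ha2 (-0.34) did not pass.

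Among matricellular proteins and proteoglycans, 4 of 20 fell and none rose, with a median of -0.66. Lum (ENSMUSG00000036446, chromosome 10, 97565128 to 97572703), which encodes lumican, a leucine-rich proteoglycan on collagen fibrils, had the lowest adjusted p of the 4. It stood at 7786, 8427, 10972 and 13335 CPM at 72 h and at 3595, 3521, 4102 and 3912 CPM at 14 d (-1.42, SE 0.17, adjusted p 8.6e-05, edgeR). At 14 d its mean of 3782 ± 272 CPM (SD, n = 4) was next to the healthy mean of 4205 ± 607 CPM. Eln, the elastin gene, fell from 285 ± 71.8 to 91.8 ± 16.3 CPM (-1.63, SE 0.29, adjusted p 0.00399, edgeR), beside 98.0 ± 26.5 CPM in healthy libraries. Thbs1, the thrombospondin that activates latent TGF-beta, had 781, 835, 1151 and 781 CPM at 72 h and 205, 293, 444 and 413 CPM at 14 d (-1.39, adjusted p 0.0237, edgeR), and it was called in 3 of the 8 fits, its call lost without 72 h replicates 3 (-1.23) or 4 (-1.45) or 14 d replicates 1 (-1.21), 2 (-1.31) or 4 (-1.48). Postn (periostin) went from 575 ± 120 to 285 ± 45.5 CPM (-1.01, adjusted p 0.0248, edgeR) and was called without 72 h replicates 1 or 2 and in none of the other 6 fits (-1.10 to -0.90). Decorin (0.07), biglycan (Bgn, -0.32) and fibronectin (Fn1, -0.14), abundant matrix genes of the same list, did not pass.

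Of the metalloproteinases and their inhibitors, 2 of 15 fell and none rose. Mmp2, gelatinase A, had 1633, 1412, 2029 and 1431 CPM at 72 h and 621, 607, 627 and 401 CPM at 14 d (-1.53, SE 0.23, adjusted p 0.00104, edgeR). The 14 d values lay below the chronic 24 h mean of 855 ± 105 CPM as well and above the healthy mean of 365 ± 73.4 CPM. Mmp19 went from 25.8 ± 3.78 to 8.33 ± 1.77 CPM (-1.63, SE 0.29, adjusted p 0.00411, edgeR). Mmp13 (-1.42, adjusted p 0.22) and the collagenase activator Mmp14 (-0.90, adjusted p 0.0478) were not called by edgeR at these thresholds, nor were Mmp3 (0.48) and the inhibitor Timp1 (-1.08), which was at 0 in 14 d replicate 4. In the list of cathepsins and lysosomal proteases all 13 values were below 0, but Ctsk, the collagen-degrading cathepsin K, was the only 1 called. It had 102, 94.1, 148 and 213 CPM at 72 h and 41.6, 37.1, 45.7 and 33.1 CPM at 14 d (-1.82, SE 0.25, adjusted p 0.00028, edgeR).

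Collagens of networks and basement membranes gave no call in either direction (0 of 17 at the thresholds, median -0.11). Col6a1 (-0.72, adjusted p 0.0134) and Col6a2 (-0.83, adjusted p 0.0134), the beaded-filament collagens, had adjusted p below 0.05 in edgeR with changes under 2-fold. Values for the type IV chains were -0.77 (Col4a1), -0.62 (Col4a2) and -1.91 (Col4a5, adjusted p 0.0761, edgeR), and those for laminins and nidogens lay between -0.20 (Nid1) and 1.05 (Lama4).

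**Figure D3:**
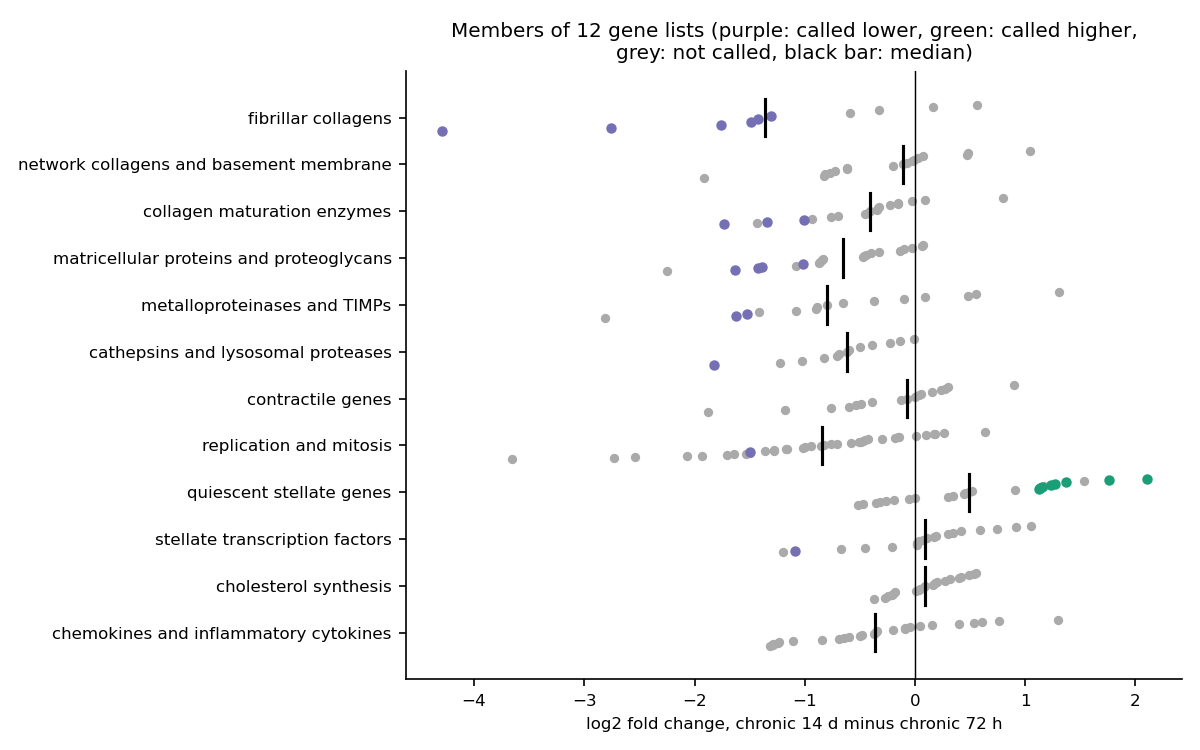
Log2 fold change of chronic 14 d against chronic 72 h for the tested members of 12 gene lists (points: purple called lower, green called higher, grey not called; black bar: list median). The 6 purple points of the fibrillar collagens and the 8 green points of the quiescent stellate genes stand out, while contractile and cholesterol genes lie around 0.

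Beyond the matrix lists, the genes with the lowest fold changes were a mixed set. Fhl2, a LIM-domain cofactor of transcription, had 68.3, 84.4, 139 and 265 CPM at 72 h and 13.1, 23.3, 22.1 and 14.3 CPM at 14 d (-2.93, SE 0.45, adjusted p 0.00135, edgeR). Its 72 h values differed by depth class, the 2 higher being those of the deeper libraries, and with depth class as a term the change was -2.06 (adjusted p 0.00565, edgeR). Mfap2, a microfibril glycoprotein, had 89.3, 87.0, 106 and 200 CPM against 27.3, 20.5, 21.0 and 14.7 CPM (-2.53, SE 0.27, adjusted p 3.71e-05, edgeR), and its 14 d libraries were level with the healthy mean of 18.3 CPM. Has1, a hyaluronan synthase, had 41.5, 49.0, 42.4 and 68.5 CPM against 5.40, 16.7, 7.58 and 6.61 CPM (-2.47, SE 0.46, adjusted p 0.00616, edgeR). Healthy libraries held 1.19 ± 0.504 CPM of Has1, so all 14 d libraries were still above them.

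Cpxm1, a carboxypeptidase-like secreted protein, fell from 437 ± 95.9 to 92.1 ± 28.2 CPM (SD, n = 4 each; -2.25, SE 0.32, adjusted p 0.000572, edgeR). Ch25h, cholesterol 25-hydroxylase, had 42.0, 47.3, 45.4 and 121 CPM at 72 h and 11.9, 20.4, 13.6 and 12.2 CPM at 14 d (-2.14, SE 0.37, adjusted p 0.00356, edgeR). Replicate 4 was the highest 72 h library for Ch25h, and without it the change was still called at -1.63. Nrep went from 134 ± 87.6 to 26.8 ± 2.23 CPM (-2.33, adjusted p 0.0308, edgeR) with 75.2 and 56.0 CPM in the shallower and 158 and 247 CPM in the deeper 72 h libraries. It was called without 72 h replicates 1 or 2 and in none of the other 6 fits (-2.56 to -1.85 over all 8). Casq2, a calcium-binding protein of muscle, had 19.9, 14.0, 37.0 and 37.3 CPM at 72 h against 6.48, 6.97, 4.69 and 4.11 CPM at 14 d (-2.28, adjusted p 0.0237, edgeR), and lost its call without 72 h replicates 3 (-2.08) or 4 (-2.09) or 14 d replicates 1 (-2.36), 3 (-2.18) or 4 (-2.14). Nnat (neuronatin, an imprinted gene) fell by 2.21 on the log2 scale and lost its call without 72 h replicate 4 (-1.95) or 14 d replicate 4 (-1.86).

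Signalling and regulatory genes were among the lower ones in small numbers. Ltbp2, a matrix protein related to the carriers of latent TGF-beta, was the 1 of 30 genes of TGF-beta, activin and BMP signalling that fell (252 ± 109 to 60.9 ± 27.95 CPM, -2.05, adjusted p 0.0215, edgeR), with its call lost without 72 h replicates 3 (-1.71) or 4 (-2.07) or 14 d replicates 1 (-1.98) or 4 (-1.81). Foxc2, a forkhead factor, fell (-1.71, SE 0.32, adjusted p 0.00579, edgeR), as did the retinoic acid receptor gene Rarb, the called gene of 20 stellate transcription factors (-1.09, adjusted p 0.0352, edgeR), which was called without 72 h replicates 2 or 4 and in no other of the 8 fits (-1.25 to -0.88). Dhrs3, a reductase that turns retinal back into retinol and is induced by retinoic acid, had 285, 192, 390 and 409 CPM at 72 h and 80.2, 114, 79.1 and 84.0 CPM at 14 d (-1.83, SE 0.29, adjusted p 0.00153, edgeR). The 14 d mean of Dhrs3, 89.4 CPM, was near the healthy mean of 83.9 CPM. It was the only called gene of 20 tested for retinoid and lipid droplet handling, in which Lrat (-0.52) and the droplet coat Plin2 (0.28) did not pass.

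The clock list held 2 genes that fell of 19. Nfil3, a repressor that binds the D-box, had 116, 95.6, 77.0 and 150 CPM at 72 h and 22.0, 33.8, 22.9 and 18.7 CPM at 14 d (-2.17, SE 0.38, adjusted p 0.00399, edgeR), with 26.9 ± 13.9 CPM in healthy libraries. Usp2, a deubiquitinase under clock control, fell from 17.5 ± 3.84 to 7.18 ± 1.63 CPM (-1.29, adjusted p 0.0168, edgeR) and was not called without 72 h replicate 4 (-1.18) or 14 d replicates 1 (-1.28), 3 (-1.21) or 4 (-1.17). Dbp, the activator at the D-box, had 12.9, 30.1, 41.9 and 72.1 CPM at 72 h and 101, 92.2, 74.6 and 76.7 CPM at 14 d. The groups of Dbp did not overlap, and the change of 1.13 (SE 0.69, adjusted p 0.497, edgeR) did not pass. Hour of collection was not among the labels used here, so it cannot be told apart from the groups.

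Genes of the quiescent HSC rose in part. Of 25 tested, 8 were higher at 14 d, none was lower, and the median was 0.49. With depth class as a term 3 of the 8 were called, Egfem1, Pcsk6 and Bmp5 (list median 0.69), and the adjusted p of the others in edgeR was 0.0609 (Rgs5), 0.0663 (Vipr1), 0.0743 (Ntm), 0.143 (Angptl6) and 0.158 (Ecm1). Egfem1 (ENSMUSG00000063600, chromosome 3, 29082023 to 29691209), which encodes a protein with EGF-like repeats, had 7.87, 9.71, 5.68 and 4.54 CPM at 72 h and 29.6, 30.4, 21.2 and 37.3 CPM at 14 d (2.10, SE 0.26, adjusted p 9.41e-05, edgeR). That was 4.29-fold higher, and still far below the healthy mean of 136 ± 11 CPM (SD, n = 4). Pcsk6, a proprotein convertase, had 24.8, 14.7, 25.3 and 10.7 CPM against 55.9, 72.0, 74.4 and 53.6 CPM (1.76, SE 0.31, adjusted p 0.00399, edgeR), beside 213 ± 27.8 CPM in healthy libraries. Vipr1, a receptor of vasoactive intestinal peptide, rose from 735 ± 276 to 1770 ± 379 CPM (1.27, adjusted p 0.0134, edgeR), and was not called without 14 d replicate 4 (1.13). Bmp5, a BMP ligand, had 126, 140, 146 and 92.1 CPM at 72 h and 202, 158, 328 and 419 CPM at 14 d (1.13, SE 0.22, adjusted p 0.00885, edgeR), and was not called without 72 h replicate 4 (1.01) or 14 d replicate 4 (0.88). For Vipr1 and Bmp5 too, every 14 d library lay above every 72 h library.

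Angptl6, an angiopoietin-like secreted protein, went from 198 ± 46.1 to 511 ± 67.4 CPM (1.37, adjusted p 0.0352, edgeR), and was called without 72 h replicate 1 and in none of the other 7 fits (1.25 to 1.49). Ntm, a neural cell adhesion molecule, had 17.6, 23.6, 14.6 and 16.1 CPM against 40.5, 33.8, 23.8 and 61.6 CPM (1.15, SE 0.25, adjusted p 0.0183, edgeR) and was not called without 72 h replicates 3 (1.07) or 4 (1.10) or 14 d replicate 4 (0.88). The groups lay side by side at 23.6 and 23.8 CPM. Ecm1 (1.24) and the pericyte regulator Rgs5 (1.12) completed the 8, called in 2 and 6 of the 8 fits. Other quiescence genes did not pass: Gfap had a value of -0.00 with 21.9 ± 4.32 CPM at 72 h and 21.8 ± 3.81 CPM at 14 d, beside 51.6 ± 11.1 CPM in healthy libraries, and Ngfr (0.90), Mapt (1.17), Hhip (1.54), Reln (0.52) and Cygb (-0.31) were not called.

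Genes outside the quiescence list rose as well. Fcna, ficolin A of the lectin complement pathway, had 292, 249, 223 and 156 CPM at 72 h and 983, 838, 654 and 800 CPM at 14 d (1.83, SE 0.34, adjusted p 0.00616, edgeR), beside 2041 ± 345 CPM in healthy libraries. Calcrl, the receptor chain for adrenomedullin and CGRP, had 371, 367, 400 and 237 CPM against 737, 614, 1057 and 1530 CPM (1.52, SE 0.24, adjusted p 0.00153, edgeR). Both genes were called in all 8 fits, with the 14 d libraries of Calcrl more widely spread than those of Fcna. Epor, the erythropoietin receptor, rose from 18.0 ± 4.56 to 46.5 ± 10.8 CPM (1.37, SE 0.24, adjusted p 0.00374, edgeR), and Pde8b, a cAMP phosphodiesterase, from 10.9 ± 3.65 to 30.0 ± 7.06 CPM (1.46, SE 0.26, adjusted p 0.00411, edgeR). Cyfip2 (1.51, adjusted p 0.00885, edgeR) was not called without 14 d replicate 4 (1.27), and Nckap5 (1.52, adjusted p 0.0151, edgeR) without 72 h replicate 4 (1.27) or 14 d replicate 4 (1.45). Nt5e, the ectonucleotidase CD73 and the only called gene of 19 YAP and TAZ targets, rose by 1.10 (adjusted p 0.0169, edgeR), which did not hold without 72 h replicate 4 (0.92) or 14 d replicate 4 (1.00).

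Dll4, a Notch ligand of endothelium, went from 12.6 ± 3.87 to 37.6 ± 5.74 CPM (1.59, adjusted p 0.0417, edgeR) and was called in none of the 8 fits without 1 library (1.39 to 1.75). Mlph rose from 16.2 ± 5.37 to 42.8 ± 7.61 CPM (1.41, adjusted p 0.0226, edgeR) and was not called without 72 h replicates 2 (1.35) or 4 (1.24) or 14 d replicates 1 (1.32), 3 (1.41) or 4 (1.41). The summed level of 14 sinusoidal endothelial markers moved the same way, at 896 to 1324 CPM in the 72 h and 1479 to 2047 CPM in the 14 d libraries. All 14 had values above 0, none was called, and none was at 0 in all 8 libraries. The defining markers Stab2 and Lyve1 had 3.60 to 9.29 and 9.26 to 15.7 CPM at 72 h and 9.26 to 22.1 and 9.86 to 21.2 CPM at 14 d, and the part of such cells in the rise of Dll4, Calcrl or other genes was not tested.

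Some lists of HSC activation gave no call at this step. None of 17 contractile genes passed (median -0.07), and Acta2, smooth muscle actin, stood at 6.27, 4.00, 2.49 and 32.0 CPM at 72 h and 4.46, 6.32, 7.22 and 1.91 CPM at 14 d, the groups overlapping (-1.18, adjusted p 0.508, edgeR). At chronic 24 h its mean had been 1545 ± 1062 CPM (SD, n = 4). Tubulins (0 of 9), ER folding and secretion (0 of 24), serine synthesis and amino acid stress (0 of 18), oxidative phosphorylation (0 of 30), cholesterol synthesis (0 of 21), lipogenic genes (0 of 17), PDGF and IGF genes (0 of 15), NRF2 antioxidant genes (0 of 16), p53 targets (0 of 14), chemokines and cytokines (0 of 27), acute phase genes (0 of 15) and MHC class II genes (0 of 10) held no called gene, with medians from -0.70 (MHC class II) to 0.16 (lipogenic). With depth class as a term these lists again held no called gene, with medians from -1.37 (MHC class II) to 0.46 (cholesterol synthesis). In the lower depth class alone the MHC class II median was -1.26. Tuba1c read 0, 166, 0.601 and 115 CPM over the 14 d libraries, so its value of -1.02 rests on a split within the group. Klf6 (-0.03), Cdkn1a (0.34), Ppara (1.05), Vcan (-0.48), Ankrd1 (-1.42) and Tnfrsf12a (-0.94) did not pass either.

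Of 38 replication and mitosis genes 32 had values below 0 (median -0.84), but levels were low and only Cdk1, the mitotic kinase, was called. It had 7.60, 7.14, 7.55 and 8.30 CPM at 72 h and 3.11, 3.29, 2.53 and 1.91 CPM at 14 d (-1.49, SE 0.32, adjusted p 0.0151, edgeR), the latter below the healthy 4.95 ± 1.54 CPM. Its call was lost without 72 h replicate 4 (-1.45) or 14 d replicates 3 (-1.44) or 4 (-1.34). Ifi27l2a was the called gene of 24 interferon-stimulated genes (263 ± 113 to 111 ± 16.1 CPM, -1.25, adjusted p 0.03, edgeR), lost without 72 h replicate 4 (-0.91) or 14 d replicates 1 (-1.28), 3 (-1.15) or 4 (-1.19). Nr4a2, an orphan nuclear receptor, was that of 21 immediate early genes (56.0 ± 7.16 to 20.8 ± 6.74 CPM, -1.43, adjusted p 0.0425, edgeR), and it was called in none of the fits without 1 library (-1.62 to -1.23).

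Gene sets that the study had drawn in part from its own libraries held further genes that fell. Of 172 tested genes of its fibrogenic program, 35 were lower at 14 d than at 72 h, none was higher, and 158 values were below 0 (median -0.92). That list was chosen by the study with the chronic 24 h, healthy and chronic 14 d libraries, so it is no independent evidence of a direction. Its called members included Ly6d (13.9 ± 11.8 to 0.980 ± 0.774 CPM, -3.81, adjusted p 0.00969, edgeR), not called without 72 h replicate 4 (-3.01), and the neurotrophin gene Bdnf (50.6 ± 15.5 to 16.02 ± 4.81 CPM, -1.66, adjusted p 0.0122, edgeR), not called without 72 h replicate 4 (-1.42) or 14 d replicate 4 (-1.48). Fgf23, the phosphate-regulating hormone gene, had 1.47, 1.29, 1.56 and 2.82 CPM at 72 h and no count in any 14 d library, which makes it at least 4.45-fold lower against 3 counts per library. Inava, with 1.07, 0, 2.49 and 2.43 CPM at 72 h and no count at 14 d, was at least 3.74-fold lower by the means, although 72 h replicate 2 overlapped the 14 d group. Asic3 had at most 3 counts in each 14 d library and was at least 9.26-fold lower. Both genes lost their calls without 72 h replicate 4 or 14 d replicate 4 (Inava -6.72 and -7.07, Asic3 -4.73 and -4.75 in log2), and Asic3 also without 14 d replicate 1 (-4.74). Of the 72 genes of the initiatory program, which came from acutely injured and cultured cells, 7 fell and none rose (median -0.46). All 7 were also among the 35 fallen genes of the fibrogenic program, so these programs are not separate evidence.

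Most genes called in the late step had also been called at chronic 24 h. At chronic 24 h against healthy, a contrast that shares no library with the step from 72 h to 14 d, 2095 genes were higher (11.2% of those tested) and 1522 lower (8.11%). Of the 120 genes that fell between 72 h and 14 d, 91 (75.8%) were among the 2095, which is 4.34% of them. Of the 49 that rose, 39 (79.6%) were among the 1522, or 2.56% of them. The opposite pairing held 1 gene that was lower at 24 h and fell again, Nrtn, and 2 that were higher at 24 h and rose further, Elfn1 and H2-Ob (named after their values were seen). Over all 2095 raised genes the median log2 fold change from 72 h to 14 d was -0.45, over the 1522 lowered genes it was 0.35, and over the others it was -0.00. Among the 28 fallen genes not called at chronic 24 h were Lum, Eln, Adamts2, Dpep1 and Sox4.

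To place single libraries between health and the end of injury, the mean log2 CPM of the 2095 raised genes was scaled so that the healthy mean is 0% and the chronic 24 h mean 100%. The chronic 72 h libraries stood at 66.2%, 70.9%, 64.3% and 80.4%, and the chronic 14 d libraries at 51.8%, 59.5%, 55.0% and 41.3%. No 14 d library reached the lowest 72 h library, and none was near the healthy range of -2.62% to 5.52%. On the same scale for the 1522 lowered genes, where 100% is again the chronic 24 h mean, the 72 h libraries stood at 44.6%, 45.01%, 49.5% and 59.4% and the 14 d libraries at 24.8%, 26.9%, 35.01% and 35.6%. The healthy libraries were more widely spread there, from -6.51% to 14.3%. Lowered genes were thus nearer to the healthy level than raised genes at both times, and the 14 d means were 30.6% ± 5.52 and 51.9% ± 7.71 (SD, n = 4). The genes that define the scale were called with the healthy and chronic 24 h libraries alone, and the end points carry the selection of those genes. All healthy libraries were of the higher and all 14 d libraries of the lower depth class.

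**Figure D4:**
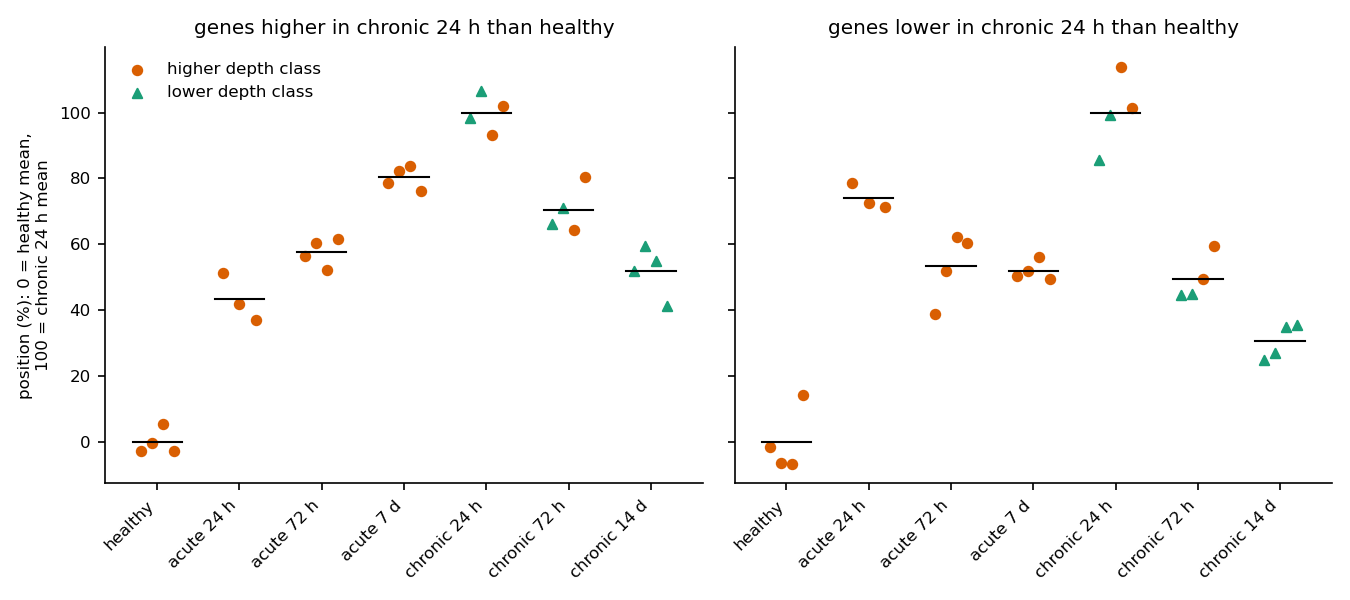
Position of every library (points, black bars at group means) between the healthy mean (0%) and the chronic 24 h mean (100%) for the 2095 genes higher (left) and the 1522 genes lower (right) in chronic 24 h than healthy libraries, with triangles for the lower and circles for the higher depth class. All chronic 14 d libraries lie below all chronic 72 h libraries in both panels and above the healthy libraries.

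The step after chronic injury was compared with the last step after a single injection. Acute 7 d against acute 72 h shares no library with it, and covers 72 h to 7 d rather than 72 h to 14 d. It gave 952 higher (5.08%) and 512 lower genes (2.73%). Of the 120 genes that fell late after chronic injury, 26 rose (21.7%) and 4 fell (3.33%) in the acute step, with a median log2 fold change of 0.47. Of the 49 that rose, 5 rose and 1 fell (median -0.08), where the median of all genes was -0.04. The difference of the steps was tested as an interaction and called for 391 genes with the chronic step higher (2.08%) and 764 with it lower (4.07%). All acute libraries were of the higher and all chronic 14 d libraries of the lower depth class. With depth class as a term, 459 and 848 genes were called.

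Of the 10 genes in the list of fibrillar collagens, 2 were called higher in the acute step (Col1a1 and Col5a3), and none lower. In the interaction 6 had a lower chronic than acute step. Col1a2 and Col3a1 (0.95 each) stayed under 2-fold in the acute step, Col5a2 was at 0.01 and Col12a1 at -0.56. Col1a1 means went from 3914 to 9357 CPM between acute 72 h and 7 d, and from 4228 to 623 CPM between chronic 72 h and 14 d, a difference of -4.02 in log2 (SE 0.49, adjusted p 2.92e-05, edgeR). Mmp2 rose from 196 to 975 CPM in the acute step and fell from 1626 to 564 CPM in the chronic one (difference -3.84, SE 0.33, adjusted p 5.47e-07, edgeR). Among genes with a mean log2 CPM of 3 or more over the 16 libraries, the lowest difference was that of Gpnmb, a glycoprotein of macrophages, which had means of 24.6 CPM at acute 72 h, 952 CPM at acute 7 d, 272 CPM at chronic 72 h and 42.6 CPM at chronic 14 d (difference -7.94, adjusted p 0.000186, edgeR). Its chronic libraries were 169, 197, 149 and 571 CPM at 72 h and 37.9, 76.7, 32.8 and 22.9 CPM at 14 d, and that step alone was not called (-2.67, adjusted p 0.0836, edgeR). The invariant chain Cd74 (-5.93), the lectin Clec7a (-5.80), osteopontin (Spp1, -5.24), midkine (Mdk, -5.23) and the cathepsin gene Ctss (-4.94) also had lower chronic than acute steps. Markers of macrophages moved with this difference: 13 of 14 were called higher in the acute step (median 2.95) and all 14 had a lower chronic step, as had 11 of 12 markers of lipid-associated macrophages and 7 of 10 MHC class II genes. Their part in the differences between the steps was not tested. At the same level limit, the highest differences were those of Cnbp (5.79), Gm42679 (3.65), Iqcn (3.59), the endothelial selectin Sele (3.16) and alkaline phosphatase (Alpl, 2.89). Cnbp had 716, 42.8, 45.2 and 46.0 CPM in the 14 d libraries, so that its value rests on replicate 1, and without it the step was 0.37. On the other side stood Egfem1 (difference 2.67, SE 0.35, adjusted p 6.56e-05, edgeR), whose mean went from 19.8 to 13.4 CPM in the acute step, and Fcna (2.38, adjusted p 0.00316, edgeR).

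Markers of other cell types moved with the step in part, and none of those of macrophages, hepatocytes or lymphocytes was called. The sum over 14 macrophage markers was 988 to 2606 CPM at 72 h and 1016 to 1745 CPM at 14 d, with 12 of 14 values below 0, and that over 12 markers of lipid-associated macrophages was 2495 to 5235 CPM and 1579 to 2159 CPM, with all 12 below 0. Kupffer cell markers summed to 443 to 1575 CPM and 154 to 1134 CPM, with Folr2 and Xlr at 0 in all 8 libraries. With all libraries the list medians were -0.73 (macrophages), -0.92 (lipid-associated macrophages) and -0.59 (Kupffer cells). In the lower depth class alone they were -0.89, -0.55 and -1.22, and with depth class as a term -1.24, -0.97 and -1.25. Hepatocyte markers summed to 5272 to 7839 CPM at 72 h and, at 14 d, to 18133 CPM in replicate 2 and 4571 to 8320 CPM in the others. Sums for 9 B cell markers rose from 112 to 309 CPM at 72 h to 331 to 579 CPM at 14 d and those for 10 neutrophil markers from 17.7 to 33.9 CPM to 50.8 to 69.0 CPM. T and NK cell markers summed to 8.64 to 41.9 CPM and 30.3 to 60.6 CPM, dendritic cell markers to 56.4 to 106 CPM and 106 to 162 CPM, and erythroid markers to 4.29 to 50.4 CPM and 20.8 to 230.2 CPM, and markers of monocyte-derived macrophages to 783 to 1150 CPM and 602 to 927 CPM, with Chil3 at 0 in all 8. In this last list 2 of 10 values were below 0 (median 0.23), and much of the sum was the matrix gene Fn1, at 391 to 884 CPM at 72 h and 353 to 703 CPM at 14 d. Sums of the B cell, neutrophil, endothelial and lipid-associated lists did not overlap between the groups. The B cell sums at 72 h were 284 and 309 CPM in the lower and 112 and 120 CPM in the higher depth class. Their list median was 1.32 with all libraries and 0.71 in the lower class alone. Much of the lipid-associated sums was Lpl (890 to 1381 CPM at 72 h, 606 to 793 CPM at 14 d) and Ctsd (791 to 1536 and 443 to 733 CPM).

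The list of mesothelial cells and portal fibroblasts lay beside the fall of the matrix genes. Of 12 tested, 3 were called lower: Wt1 (101 ± 20.8 to 37.7 ± 8.42 CPM, -1.41, adjusted p 0.00885, edgeR), not called without 14 d replicate 4 (-1.30), Dpt (dermatopontin, -1.20, adjusted p 0.0475, edgeR), called without 72 h replicate 2 and in none of the other 7 fits (-1.36 to -0.98), and Eln, which also is a matrix gene above. The 13 markers summed to 825 to 1389 CPM at 72 h and 355 to 597 CPM at 14 d, without overlap. Much of these sums was Dpt (370 to 706 CPM at 72 h, 153 to 289 CPM at 14 d) and Eln (200 to 352 and 67.6 to 102 CPM). The sums thus largely repeat those calls. Of the 12 values 7 were below 0, with a median of -0.33, and of -0.07 in the lower depth class alone. The mesothelial markers Msln and Upk3b read 0 to 0.862 CPM and 2.93 to 7.57 CPM at 72 h and 0 to 3.16 CPM and 2.03 to 23.2 CPM at 14 d, the highest values being those of 14 d replicate 2, and the fibroblast marker Thy1 read 2 to 4.39 and 1.47 to 5.13 CPM. Whether such cells contributed to the fall of collagens was not tested. Cholangiocyte markers summed to 370 to 1019 CPM at 72 h and 306 to 576 CPM at 14 d.

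Depth class was examined for all called genes because it divides the 72 h group. With only the lower class (2 libraries at 72 h and 4 at 14 d), 48 of the 49 higher genes and 118 of the 120 lower genes could be fitted. Their signs were largely set by the choice of genes whose groups do not overlap, and are no check on depth. The changes were smaller, with medians of 1.19 in place of 1.34 and -1.17 in place of -1.42, and 37 and 81 genes stayed above 2-fold. Calls fell to 9 higher and 11 lower genes, of which 1 and 7 were among those called with all libraries. With depth class as a term 28 higher and 66 lower genes were called, 18 and 53 of them among those called without it. Col1a1 was -2.58 and Egfem1 2.02 in that fit, with adjusted p of 0.00221 and 0.00143 (edgeR).

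**Figure D5:**
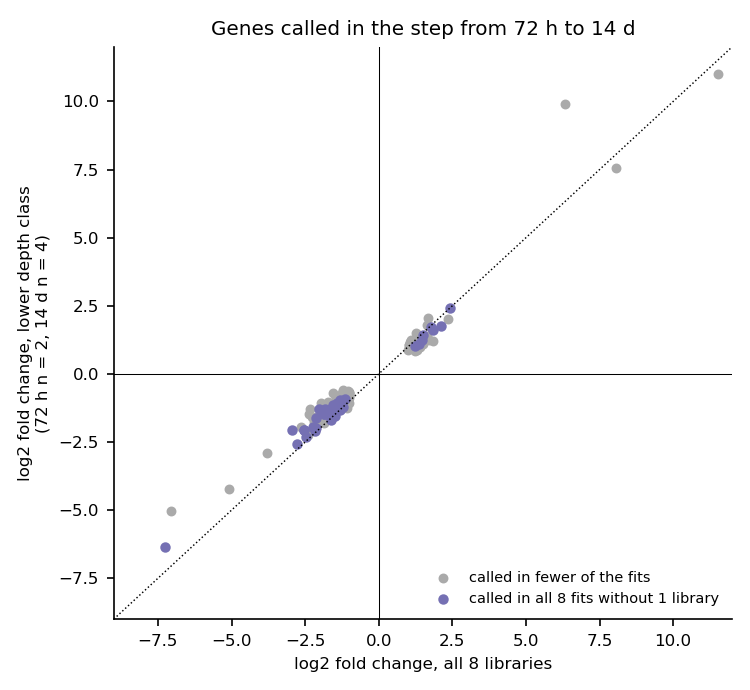
Log2 fold change of the called genes in the lower depth class alone (vertical axis, 2 libraries at 72 h and 4 at 14 d) against that from all 8 libraries (horizontal axis), for the 166 genes with both values. Purple marks genes called in all 8 fits without 1 library and the dotted line equality. The signs follow largely from the choice of called genes, and most of the lower genes lie somewhat nearer to 0 than the line.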

How the data were processed

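HSCs were isolated from mouse livers by ultraviolet sorting and their RNA was sequenced in single-end reads. The authors ran FastQC on the reads, mapped these to GRCm38.p6 with STAR and then ran StringTie. The deposited table holds whole-number counts per Ensembl gene for 27 libraries. How those counts were made from the StringTie output, the tool versions and the strand setting are not given in the sources used here, so overlapping and antisense genes may share reads.

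From these counts, 53379 genes were read (16198 without a count) and 18758 kept by edgeR's filterByExpr. Symbols and coordinates came from GENCODE M21 for GRCm38, and 53274 identifiers matched. A group-means model over all 27 libraries in 7 groups was fitted with TMM scaling and tested with the edgeR 4.0.16 quasi-likelihood test (limma 3.58.1, R 4.3.3), and p-values were adjusted over all genes tested by Benjamini-Hochberg. Calls needed an adjusted p below 0.05 together with more than a 2-fold change. CPM values were scaled by TMM, and values of a gene with at most 3 counts in every library of a group are given as bounds. DESeq2 1.42.0 was an alternative. Scripts were tested on simulated data. Figures were drawn with matplotlib 3.10.9.

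The genes named were the 10 highest and 10 lowest fold changes among called genes whose groups did not overlap and whose mean log2 CPM was 3 or more, 23 fixed genes, up to 4 called members per list and direction, and the 5 highest and 5 lowest called differences between the chronic and acute steps with a mean log2 CPM of 3 or more over the 16 libraries of these steps. The members and lists were chosen with earlier results of these data known. Library totals of 6.31 M to 13.1 M counts set the precision, and floors cover counting error only. Replicate numbers were not used as pairs. Alternatives were other scalings, filters and thresholds, DESeq2, a replicate block, depth class as a term, fewer libraries and each library left out.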

Additional observations from a re-analysis of the deposited data

Results flagged for a closer look

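In 15 of 140 groups of 4 libraries examined for the named genes, 1 library lay far from the other 3 by Dixon's criterion, which chance gives in about 1 in 20 groups. Chronic 72 h replicate 4 was that library for 6 genes. It had 32.0 CPM of Acta2 (others 2.49 to 6.27), 121 CPM of Ch25h (others 42.0 to 47.3), 571 CPM of Gpnmb (others 149 to 197), 31.7 CPM of Ly6d (others 7.14 to 8.79), 199.6 CPM of Mfap2 (others 87.0 to 105.9) and 8.30 CPM of Nckap5 (others 22.3 to 23.4). Chronic 72 h replicate 3 had 1151 CPM of Thbs1 (others 781 to 835).

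Among the chronic 14 d libraries, replicate 4 was low for Eln (67.6 CPM, others 97.4 to 102.0), Mmp2 (400.9 CPM, others 607 to 627) and Nnat (1.18 CPM, others 6.35 to 6.98). Replicate 2 was high for Dhrs3 (114 CPM, others 79.1 to 84.0) and Tnfrsf12a (10.9 CPM, others 5.58 to 5.81). Replicate 3 was high for Col12a1 (17.2 CPM, others 9.99 to 11.2) and held the 14 d counts of Asic3 (0.361 CPM) and Col11a1 (0.241 CPM), which were at 0 in the others.

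The step from 72 h differed between chronic and acute injury for 39 of 71 named genes when the difference was tested in edgeR. Over all genes tested, 2.08% had a higher and 4.07% a lower chronic step. Most of the 71 were named for their chronic step, which is part of this difference. Their share was therefore raised by the choice of genes and is no evidence about the steps. Lower after chronic injury, as log2 differences, were the collagens Col1a1 (-4.02), Col1a2 (-2.71), Col3a1 (-2.37) and Col11a1 (-5.74) and the matrix genes Eln (-2.25), Lum (-1.87), Mfap2 (-3.52), Postn (-1.06), Dpt (-2.83), Ltbp2 (-3.01), Loxl1 (-2.15), Adamts2 (-1.38) and Has1 (-3.04). The proteases Mmp2 (-3.84), Mmp19 (-2.996), Ctsk (-2.93), Ctss (-4.94) and Cpxm1 (-4.64) were lower too. So were the regulators Fhl2 (-3.27), Nfil3 (-2.97), Nr4a2 (-2.07) and Wt1 (-2.63), and Asic3 (-6.51), Ch25h (-3.42), Dhrs3 (-2.52), Fgf23 (-7.53), Gpnmb (-7.94), Inava (-8.06) and Nrep (-3.23). Higher after chronic injury were Bmp5 (1.20), Calcrl (1.26), Cyfip2 (1.81), Egfem1 (2.67), Fcna (2.38), Nckap5 (1.90), Nt5e (1.10), Ntm (1.42), Pcsk6 (1.94) and Pde8b (1.56). The steps ended at 14 d and 7 d, a difference in time that cannot be told apart from that in injury.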

How the results depend on the processing

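Counts are given as higher and lower genes at 14 d against 72 h, 49 and 120 in the report. DESeq2 called 129 and 211, an adjusted p below 0.1 gave 81 and 193, and no fold minimum 74 and 223. No filter on low counts left 28 and 96, depth class as a term 28 and 66, a fit of only the groups compared 17 and 56, and libraries of lower depth alone 9 and 11. Without the 2 chronic 72 h libraries of higher depth, an alternative chosen after seeing the data, they were 2 and 21. An edgeR test against a 2-fold minimum called 0 and 2, where 1014 and 1624 genes had an unadjusted p below 0.05. The ranges without 1 library were 11 to 58 and 45 to 120.

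Genes raised at chronic 24 h that then fell (91), and genes lowered that then rose (39), became 145 and 75 with DESeq2, 177 and 59 without a fold minimum, 43 and 19 with the depth term, 42 and 7 with only the groups compared, 8 and 4 in the lower depth class, 18 and 1 without the deeper 72 h libraries, and 2 and 0 against a 2-fold minimum. No filter gave 25 of the second kind. Without 1 library they ranged from 36 to 102 and from 9 to 43. Genes with a higher chronic than acute step (391) became 220 without a filter, 596 at an adjusted p below 0.1, 245 without the deeper 72 h libraries and 22 against a 2-fold minimum, and those with a lower step (764) became 187 in the last. Without 1 library they were 275 to 426 and 599 to 821.

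Changes of sign were found in genes that were not called. Acta2 was 0.26 without chronic 72 h replicate 4 and as low as -1.50 without another library. Cdkn1a was -0.10 with the depth term, -0.11 in the lower depth class and -0.13 without the deeper 72 h libraries. Gfap was 0.033 with DESeq2 size factors, 0.052 with library size alone, 0.037 with DESeq2, 0.012 with a filter of 1 CPM, 0.0066 with the replicate block, 0.029 with only the groups compared, and -0.093 to 0.11 without 1 library. Klf6 was 0.013 with DESeq2 or its size factors, 0.024 with library size alone, 0.00044 with only the groups compared, and -0.22 to 0.20 without 1 library. The causes were not tested.

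Replicate numbers of the groups did not deviate together (r = 0.06, 0.01, 0.10 and -0.05), and 2 of 4 libraries correlated best with their own number. The replicate block gave 44 higher and 115 lower genes. Depth limits genes with few counts, such as Fgf23 and Inava.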
